A study of Triticum turgidum subsp. durum with 24 samples.

Results

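Ribosomal proteins and translation factors were followed in leaves of durum wheat through 59 probe sets (PSs) of the Affymetrix Wheat Genome Array, out of 61290 on the array. A PS is a group of short probes that together report 1 transcript signal. The PSs were chosen by words: those whose annotation in the study's tables held ribosomal protein, translation initiation, elongation factor, release factor or tRNA. Both tables were at hand only in part, with 3155 PSs between them, of which 48 of the 59 came from the table of all PSs listed for a treatment comparison and 11 from the table of selected expression clusters. The annotation is that of the best Arabidopsis match, so a name such as RPS2C stands for a wheat sequence that resembles that Arabidopsis gene.

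Ribosomes translate mRNA into protein and are built from rRNA and many ribosomal proteins, with 1 set for the 80S ribosome of the cytosol and separate bacterial-type sets for the ribosomes of chloroplasts and mitochondria. Initiation factors place the ribosome on the mRNA, elongation factors bring in the charged tRNAs and move the ribosome along, and release factors free the finished chain at the stop codon. In green leaves chloroplast ribosomes make many subunits of the photosynthetic complexes, while their own proteins are mostly encoded in the nucleus and imported. By annotation the PSs fell into 19 for the cytosolic ribosome, 11 for the chloroplast ribosome, 8 for other ribosomal protein families, 9 for initiation factors, 5 for elongation factors and the related EF-P family, 2 for release factors and 5 for tRNA enzymes and tRNA-binding proteins. The 59 PSs had 47 distinct Arabidopsis matches, and 21 PSs shared 9 of these matches, so PSs with the same match are not independent and are told apart here by the suffix of their names (at, a_at, s_at or x_at). The suffixes x_at (11 PSs) and s_at (7 PSs) mark PSs with probes that other transcripts can share.

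The cultivars Ofanto and Cappelli were each sampled in 4 groups of 3 arrays, 24 arrays in all. Drought stress (DS) brought the soil water content to 12.5% at a day temperature of 19 °C, heat stress (HS) raised the day temperature to 40 °C at a soil water content of 28%, combined stress (CS) joined 12.5% with 40 °C, and control plants had 28% and 19 °C. The labels name whole leaves at the third leaf stage where the study's text names flag leaves at booting, and they record that all plants received fungicide against powdery mildew from tillering. The descriptions of Ofanto control replicates 2 and 3 carry the drought text, but both are control by title and by source name and were used as such. The 3 replicates come from a randomized block layout, and how many plants stand behind an RNA sample was not stated, so p-values measure only the spread between these samples. In whole leaves, fewer cells of a type and less RNA per cell cannot be told apart.

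Signals are MAS5 values on a linear scale, and each array had been scaled to the same trimmed mean, so a change of all transcripts together is not visible in them. All 59 PSs passed a filter that kept 28072 PSs, those that on all 3 arrays of at least 1 group exceeded the 60th percentile of the array. The percentile lay at 107 to 144 on the 24 arrays, and a signal under it is called dim here, as is a group whose 3 arrays all lie under it. On the log2 scale the median SD between the 3 arrays of a group was 0.101 to 0.163 for the 59 PSs in the 4 Ofanto groups. In Cappelli it was 0.163 under DS, 0.249 under HS and 0.345 under CS, against 0.162 in control. With 3 arrays a group, precision is limited throughout. The ubiquitin control gave a 3′ minus 5′ log2 difference, a measure of RNA and labelling quality, of -1.10 under DS, -1.35 under HS and -1.47 under CS in Ofanto, against -0.958 in control. In Cappelli it was -1.13 under DS, -1.59 under HS and -1.43 under CS, against -1.29 in control. It thus moved with heat, and its part in the results was not tested. Spike-in RNAs, used in the study to monitor labelling and hybridization, give another scale, though the amount added was not stated. On it all PSs shift in common by -0.0655 under DS, 0.774 under HS and -1.01 under CS in Ofanto, by -0.301, -0.429 and -1.11 in Cappelli, and by -0.894 in the cultivar difference, and this shift turns the direction of several class medians. The spike-in mean also varied within some groups. It was 11.03, 12.24 and 11.71 log2 on the Ofanto DS arrays and 10.45, 10.33 and 11.45 in Cappelli HS. In Ofanto HS it was 10.83, 10.82 and 10.81. The shifts carry this spread, so a change of sign on this scale can be uncertain.

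A PS was called when its limma adjusted p was under 0.01 and its change at least 2-fold. The comparisons between treatments within a cultivar chose these PSs, so their counts and changes are a description without a test, set beside the share called among all 28072 PSs. In Ofanto DS 1 of 59 was called up (2.67% of all PSs) and 0 down (1.13%), in Ofanto HS 23 up (10.4%) and 0 down (7.46%), and in Ofanto CS 13 up (14.4%) and 5 down (19.7%). In Cappelli DS 3 were called up (0.891%) and 0 down (0.445%), under HS 16 up (11.2%) and 8 down (13.6%), and under CS 19 up (9.89%) and 3 down (11.8%). The median change of the 59 PSs in Ofanto was 0.06 under DS, 0.81 under HS and 0.21 under CS on the log2 scale, beside medians over all PSs of 0.01, 0.02 and -0.17. In Cappelli it was 0.37, 0.22 and 0.66, beside -0.02, -0.02 and -0.06. Under the methods' t-test in place of limma, 8 were called in Ofanto HS, 7 in Ofanto CS, 6 in Cappelli HS and 0 in Cappelli CS. On the spike-in scale the calls up and down were 41 and 0 in Ofanto HS, 3 and 15 in Ofanto CS, 0 and 0 in Cappelli DS, 2 and 11 in Cappelli HS and 1 and 15 in Cappelli CS. All PSs shift in common on that scale, by 0.774 in Ofanto HS and -1.01 in Ofanto CS, so the shares above do not apply there. Counts under other settings, here and below, have no share of all PSs beside them. They show only how the calls depend on the setting.

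**Figure D1:**
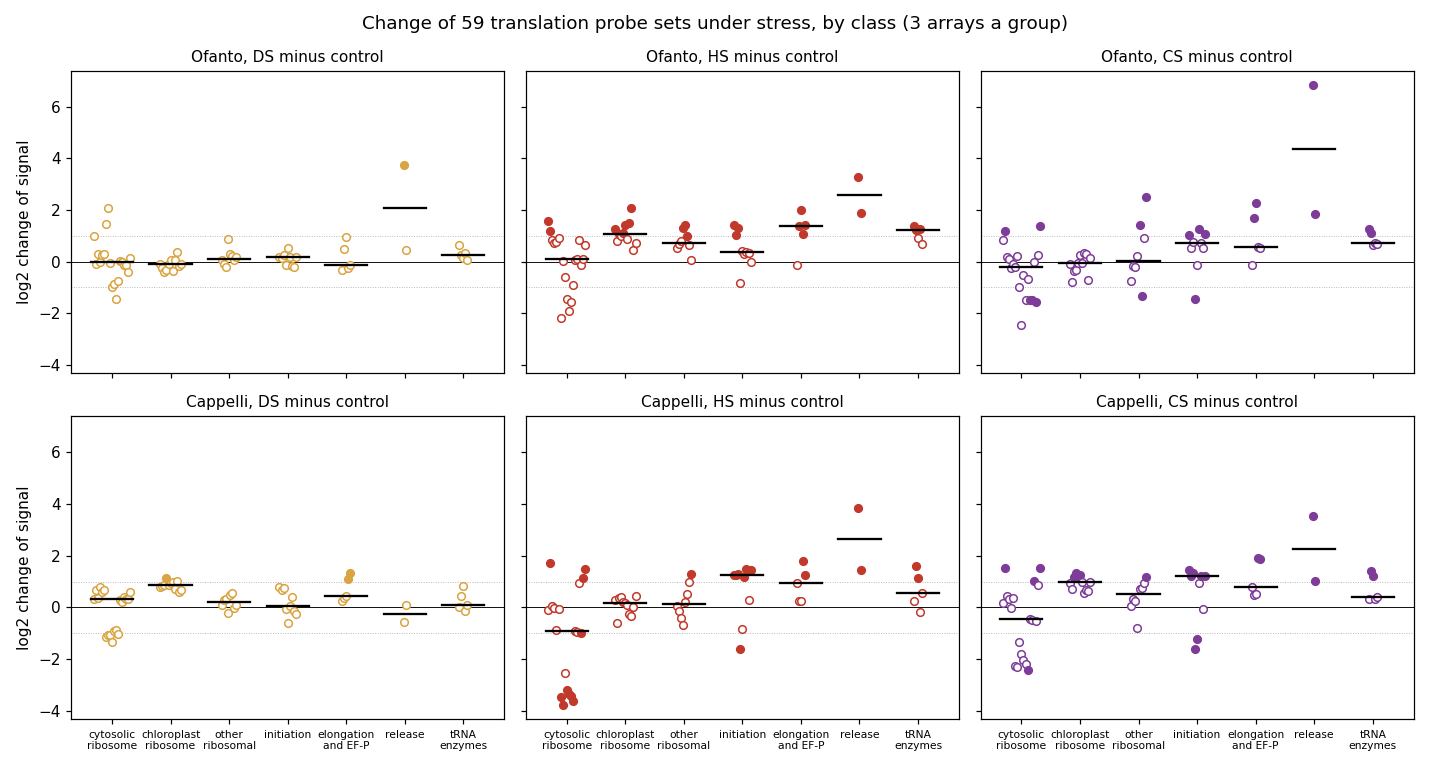
Log2 change against control of each of the 59 PSs, by class, with Ofanto above and Cappelli below and DS, HS and CS from left to right. Filled points were called, bars are class medians, and dotted lines mark 2-fold. The 7 lowest points of Cappelli HS, all under -2.5, are cytosolic ribosomal proteins, and the highest point of Cappelli HS and CS is the eRF1 PS. Changes of these 7 and of eRF1 within Ofanto are fitted from dim groups, so those points show no exact size.

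The rule did not use the mean of the 4 Ofanto groups minus the mean of the 4 Cappelli groups, which was fitted for the 48 PSs from the table of all listed PSs. Of these, 0 were called higher (5.39% of all PSs were) and 8 lower (6.82%) in Ofanto, which is 16.7% beside 12.2% of all 28072 PSs and 18.4% of the 1788 other PSs of that table. So the share of called PSs was near the background, and 7 of the 8 lay in 1 class, the cytosolic ribosome, where 7 of 17 tested PSs were called. These 7 PSs match 6 Arabidopsis genes, 4 for proteins of the small (40S) subunit, RPS2C, RPS11B, RPS20B and RPS26C, and 2 for proteins of the large (60S) subunit, RPL10C and RPL34B. The eighth PS belongs to the EF-P family. All 7 cytosolic PSs passed the filter through Cappelli groups alone, so they had to differ, and they are described without a test and with folds given as bounds. The EF-P PS was above the percentile in both cultivars and keeps its test.

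**Figure D2:**
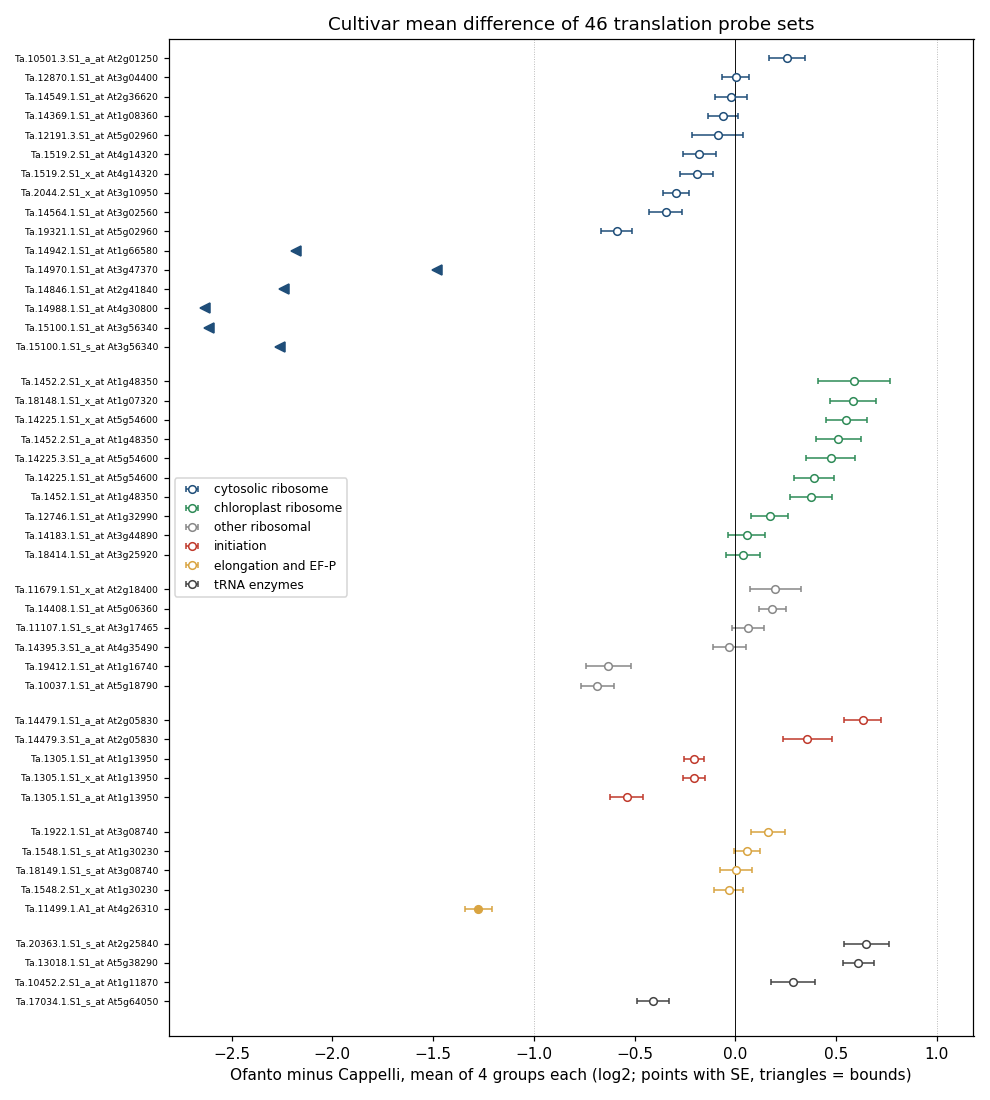
Ofanto minus Cappelli difference of 46 of the 48 PSs, each the mean of 4 groups (log2), ordered by class. The 40 points are differences with their SE, filled for the EF-P PS At4g26310 called at -1.28, and the 6 triangles are cytosolic PSs with a dim Ofanto side, placed at their bounds, from at least 1.48 to at least 2.63 log2 units lower in Ofanto.

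RPS2C (At2g41840), a protein near the mRNA entry channel of the 40S subunit, gave Ofanto signals of 53.4, 52.2 and 43.4 under DS, 5.05, 2.95 and 4.11 under HS and 20.8, 5.92 and 29.6 under CS, against 59.2, 12.0 and 8.00 in control. In Cappelli the same PS gave 996, 629.7 and 1207 under DS, 190.0, 139.8 and 224 under HS and 894, 623 and 136 under CS, against 1857, 1806 and 2489 in control. All 12 Ofanto arrays lay below all 12 Cappelli arrays, as in 1.87% of all PSs. The 12 Ofanto arrays were also all dim and the 12 Cappelli arrays all above the percentile, as in 156 of the 28072 PSs. Within Cappelli the control arrays were the highest and the HS arrays among the lowest. Because the Ofanto side was dim, the fold is a bound, with Ofanto at least 4.73-fold lower when dim arrays are set to their percentile, as for the bounds below. The match of this PS to Arabidopsis was weaker than the limit in the methods.

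RPS11B (At4g30800), another 40S protein, had signals in Ofanto of 9.56, 53.3 and 6.03 under DS, 6.59, 2.38 and 22.5 under HS and 4.51, 41.9 and 34.2 under CS, against 53.2, 19.4 and 18.7 in control. Its Cappelli signals were 1420, 822 and 1715 under DS, 216, 217 and 286 under HS and 1067, 728 and 257 under CS, against 2125, 1960 and 3338 in control. Again no Ofanto array left the dim range and no Cappelli array entered it. The signals were at least 6.21-fold lower in Ofanto.

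RPS26C, a 40S protein at the mRNA exit side, was read by a pair of PSs. The at PS of At3g56340 gave 16.8, 23.4 and 3.39 under DS, 25.4, 2.53 and 15.2 under HS and 3.54, 26.2 and 12.6 under CS, against 54.7, 7.97 and 59.2 in Ofanto control. In Cappelli it gave 1468, 846 and 1874 under DS, 209, 201 and 277 under HS and 1086, 753 and 183 under CS, against 2078, 2214 and 3198 in control. The cultivars did not overlap, and Ofanto was at least 6.09-fold lower. The s_at PS of At3g56340 gave Ofanto signals of 8.57, 4.62 and 5.63 under DS, 4.08, 9.20 and 4.28 under HS and 5.49, 5.94 and 8.41 under CS, against 6.36, 14.4 and 11.7 in control. Its Cappelli signals were 1099, 648 and 1586 under DS, 136, 158 and 238 under HS and 996, 640.3 and 93.7 under CS, against 1933, 1731 and 2782 in control. It repeated the pattern of its partner, with Ofanto at least 4.78-fold lower.

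RPS20B (At3g47370), a 40S protein of the head region, gave 3.34, 27.9 and 30.1 under DS, 3.40, 10.1 and 31.2 under HS and 4.44, 5.87 and 4.95 under CS, against 56.3, 7.70 and 49.6 in Ofanto control. Cappelli arrays read 445, 326 and 553 under DS, 176, 109.5 and 83.8 under HS and 574, 389.8 and 139.7 under CS, against 855, 1066 and 1411 in control. The groups of the cultivars did not overlap, although 2 of the 12 Cappelli arrays, both under HS, were dim. Ofanto was at least 2.8-fold lower.

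RPL10C (At1g66580), a 60S protein needed for the joining of the subunits, read 21.2, 13.2 and 53.7 under DS, 11.7, 10.3 and 43.2 under HS and 12.1, 25.2 and 7.31 under CS, against 33.0, 8.10 and 65.0 in Ofanto control. In Cappelli the readings were 684, 390.5 and 1042 under DS, 245, 214 and 265 under HS and 1240, 701 and 193 under CS, against 1106, 1204 and 1980 in control. Ofanto was at least 4.53-fold lower, with no overlap. RPL34B (At1g69620), also of the 60S subunit, read 59.2, 38.1 and 148 under DS, 7.45, 10.7 and 59.2 under HS and 31.3, 40.9 and 5.22 under CS, against 9.40, 63.0 and 7.26 in Ofanto control. Cappelli readings were 706, 486 and 936 under DS, 122, 141 and 64.0 under HS and 432, 466 and 118 under CS, against 1213, 1240 and 1956 in control. It was the only PS of the 7 whose cultivars overlapped, since 1 of 12 Ofanto arrays was not dim and 3 of 12 Cappelli arrays were, and no fold is given for it.

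**Figure D3:**
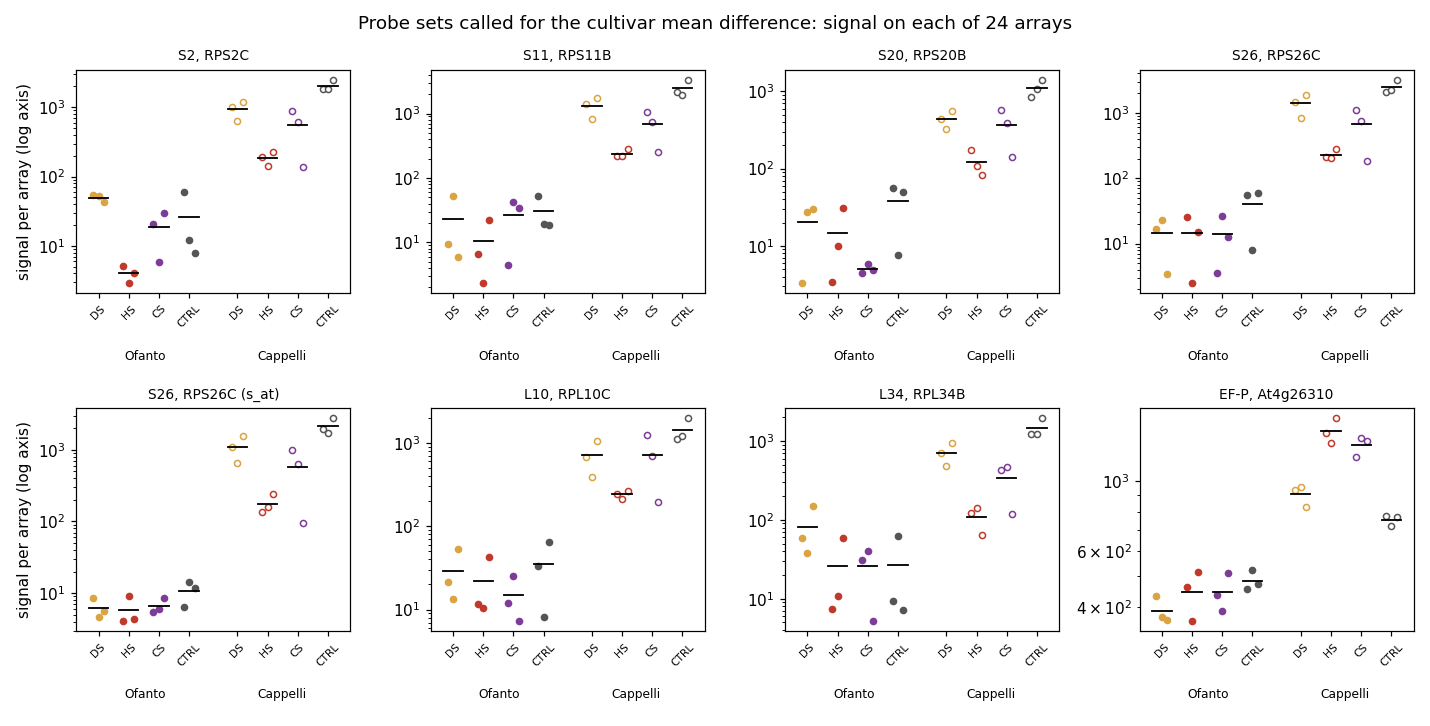
Signal on each array (log axis) of the 8 PSs called for the cultivar difference, with DS, HS, CS and control from left to right in Ofanto (filled points) and then Cappelli (open points). Bars are means of 3 arrays. The 7 cytosolic PSs reach at most 148.5 on any Ofanto array, and their Cappelli control arrays lie between 855 and 3338.

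Within Cappelli all 7 PSs had lower means under each stress than in control. Their log2 change against control ran from -1.33 to -0.89 under DS, and over the 5 PSs with all 3 arrays above the percentile from -3.61 to -2.52 under HS and from -2.26 to -1.32 under CS. RPS20B and RPL34B had 1 of 3 HS arrays above the percentile, and RPL34B and the s_at PS of RPS26C had 2 of 3 CS arrays above it. The DS and HS arrays lay below the control arrays in all 7, as they did in 19.2% and 30.6% of all PSs. Cappelli CS replicate 3 was the lowest of its 3 arrays in all 7 PSs, with RPS26C at 182.9 beside 1086 and 753 in At3g56340 at, so the spread within Cappelli CS was wide here. Of these 7 PSs, 6 were called down in Cappelli HS (13.6% of all PSs were) and 1 in Cappelli CS (11.8%). In Ofanto their changes compare dim signals with dim signals and are given no fold.

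This cultivar pattern was also found outside the 59 PSs. A rule set after these values were seen, at most 1 Ofanto array and at least 10 Cappelli arrays above the percentile, found 296 of the 28072 PSs (1.05%), of which 6 were among the 59. The reverse rule found 164 PSs, of which 0 were among the 59. In the tables at hand 41 PSs had the first pattern and 11 of them an annotation.

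The EF-P family PS matching At4g26310 was above the percentile on all arrays of both cultivars. Ofanto signals were 432, 372 and 365 under DS, 464, 362 and 517 under HS and 436, 389 and 512 under CS, against 457, 524 and 471 in control. Cappelli signals were 938, 956 and 831 under DS, 1419, 1319 and 1580 under HS and 1188, 1366 and 1340 under CS, against 774, 721 and 769.5 in control. All 12 Ofanto arrays were below all 12 Cappelli arrays, with a difference of -1.28 ± 0.07 (SE, limma adjusted p = 2.2e-11), that is 2.42-fold lower in Ofanto. In Cappelli the HS and CS arrays lay above the DS arrays, and the control arrays lay lowest, while the Ofanto groups lay close together. Its difference kept its sign and its call under every alternative run, the spike-in scale included.

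The other 40 of the 48 PSs lay within 2-fold between the cultivars, from -0.69 for the L33 family PS At5g18790 to 0.65 for At2g25840, a match to a tryptophanyl-type tRNA synthetase. In the mean of the 4 groups the chloroplast ribosome had all 11 PSs higher in Ofanto, with a median of 0.47 and none called. On the spike-in scale this median was -0.42. The direction differed between treatments. All Ofanto arrays lay above all Cappelli arrays in 8 of the 11 PSs in control and in 11 under HS. They lay below them in 5 under DS and in 4 under CS, and the other PSs overlapped. The share of all PSs without overlap was not taken for these comparisons. So the counts have no background beside them and cannot be read as a trait of this class. They are a description without a test. The eRF1 PS came from the table of selected clusters, which were picked on the profile over all groups, and no cultivar difference is given for it.

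Among the other 12 cytosolic PSs the widest ranges belonged to 60S proteins of the L36a/L44 and L37a types. RPL37aB (At3g10950) gave Ofanto signals of 4218, 4482 and 4220 under DS, 4619, 4042 and 4011 under HS and 1550, 1620 and 1540 under CS, against 4800, 4730 and 4415 in control. In Cappelli they were 6410, 6834 and 6044 under DS, 2457, 2423 and 2788 under HS and 2747, 3739 and 4447 under CS, against 5263, 4975 and 5143 in control. The CS arrays of Ofanto and the HS arrays of Cappelli were the lowest of their cultivars, with log2 changes of -1.56 and -1.01, while DS in Cappelli was above control at 0.33. RPL36aB had 2 PSs. The first, At4g14320 x_at, averaged 12160 ± 327 under DS, 13120 ± 803 under HS and 4335 ± 201 under CS, against 12200 ± 579.8 in Ofanto control (SD, n = 3 each). In Cappelli it averaged 15750 ± 179 under DS, 6954 ± 410.0 under HS and 10090 ± 3405 under CS, against 13570 ± 419.7 in control (SD, n = 3 each). Both PSs were called down in Ofanto CS, at -1.49 and -1.47, and neither was called in Cappelli HS, where the changes were -0.97 and -0.91.

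Other 40S and 60S proteins were called up. RPS23B, a protein of the decoding site, had the first of its PSs at 286 ± 46.2 under DS, 684 ± 93.6 under HS and 684 ± 110.5 under CS, against 318 ± 132 in Ofanto control (SD, n = 3 each). Cappelli had 386 ± 37.7 under DS, 789.9 ± 118 under HS and 691 ± 109 under CS, against 244 ± 54.0 in control (SD, n = 3 each). It was called up under HS and CS in both cultivars, by 1.19 and 1.19 in Ofanto and by 1.71 and 1.51 in Cappelli. The second PS for this match differed from it in Ofanto CS, where it read -0.03. RPS29C (At4g33865) was called up in Ofanto CS (1.40), Cappelli HS (1.50) and Cappelli CS (1.53), and RPL22B (At3g05560) in Cappelli HS alone (1.14). RPL7B (At2g01250) was called up in Ofanto HS (1.57) and read -0.12 in Cappelli HS. The remaining RPL24A, RPS7B, RPL23C and RPL10aA PSs were called in no comparison with control, and RPL24A (At2g36620) read 0.75 in Ofanto and -0.87 in Cappelli under HS, with no overlap with control in either.

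Nuclear genes for the chloroplast ribosome were read by 11 PSs. Under HS in Ofanto all 11 PSs had every array above every control array (30.9% of all PSs did). Of the 11, 6 were called up (10.4% of all PSs were), with a class median of 1.09 that was 1.86 on the spike-in scale. Under CS in Ofanto the class median was -0.07 and none was called, and this median turned to 0.10 when arrays were centred on their median and was -1.08 on the spike-in scale. In Cappelli under DS all 11 lay above control on every array (17% of all PSs did) with a median of 0.86. Of these 1 was called up (0.891% of all PSs were), and the median stayed above 0 on the spike-in scale at 0.56. Under HS the Cappelli median was 0.18 with 0 calls (-0.25 on the spike-in scale). Under CS it was 0.99 (-0.13 on the spike-in scale) with 4 calls, beside 9.89% of all PSs called up.

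**Figure D4:**
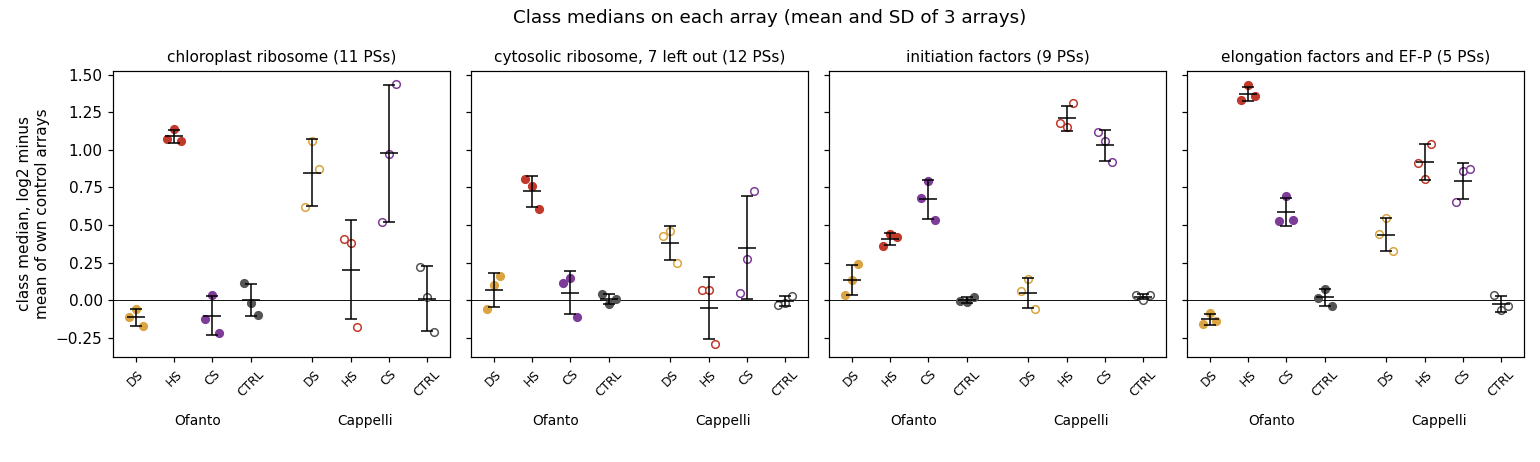
Class median on each array, as the log2 signal minus the mean of the control arrays of the same cultivar, for 4 classes (points are arrays, bars mean and SD of 3), with DS, HS, CS and control from left to right in Ofanto (filled) and then Cappelli (open). The chloroplast ribosome reaches 1.06 to 1.14 in Ofanto HS and lies at -0.219 to 0.0351 in Ofanto CS, and in Cappelli it spans 0.52 to 1.44 in CS.

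The L24 protein of the chloroplast 50S subunit (CL24) was covered by 3 PSs. The a_at PS of At5g54600 gave 3549, 3419 and 3293 under DS, 8028, 9005 and 9104 under HS and 3790, 4348 and 3566 under CS, against 3523, 3273 and 3034 in Ofanto control. Cappelli gave 3244, 4574 and 4382 under DS, 2977, 3103 and 1489 under HS and 3770, 5018 and 6627 under CS, against 2492, 2240 and 1693 in control. In Ofanto the HS arrays stood alone above the rest, whereas in Cappelli the CS and DS arrays were both above control and the HS arrays straddled it. The log2 changes were 1.41 in Ofanto HS, and in Cappelli 0.93 under DS, 0.18 under HS and 1.24 under CS.

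A chloroplast L18 family protein had 3 PSs as well. The x_at PS of At1g48350 gave 2135, 1455 and 1563 under DS, 4725, 6565 and 5134 under HS and 1172, 2177 and 1608 under CS, against 1149, 1552 and 1206 in Ofanto control. Its Cappelli arrays gave 1514, 3388 and 2156 under DS, 1053, 1431 and 447 under HS and 1363, 1671 and 2292 under CS, against 1015, 1119 and 1160 in control. The a_at PS of At1g48350 read 2354, 2280 and 2076 under DS, 5885, 6256 and 5902 under HS and 2658, 3180 and 2384 under CS, against 2336, 2098 and 1966 in Ofanto control. Both PSs had their highest arrays in Ofanto HS, with changes of 2.07 and 1.50. In Cappelli At1g48350 a_at read 2262, 3198 and 3203 under DS, 1766, 1656 and 1036 under HS and 1850, 2613 and 3670 under CS, against 1909, 1825 and 1542 in control, and Cappelli HS replicate 3 was the lowest array of that cultivar in both. The third PS, At1g48350 at, read 0.89 in Ofanto HS, where its arrays also stood above control.

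The 50S proteins L4, L9, L11 and L15 of this class read between 0.46 (L4) and 1.28 (L11) in Ofanto HS.

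Genes of green leaf tissue were measured beside this class. The list was made by annotation words and includes PSs for the early light-induced protein (At3g22840). The 8 PSs annotated as chlorophyll-binding or photosystem proteins summed to 222000 to 247100 under DS, 161600 to 166000 under HS and 65860 to 85370 under CS in Ofanto, against 259700 to 297700 in control. In Cappelli the sums were 146300 to 178400 under DS, 26010 to 44530 under HS and 41950 to 116000 under CS, against 164400 to 187300 in control. Their median log2 change was -0.60 under HS and -1.22 under CS in Ofanto and -2.12 under HS and -1.07 under CS in Cappelli, and in that order 0, 5, 5 and 3 of the 8 were called down and 0, 1, 2 and 2 up. Among all PSs, in that order, 7.46%, 19.7%, 13.6% and 11.8% were called down and 10.4%, 14.4%, 11.2% and 9.89% up. The members did not move as 1, since the lowest member mean rose from 31.1 in Cappelli control to 212.9 under HS and 425.5 under CS. So in Ofanto HS the chloroplast ribosome PSs were above control while the sum of the green leaf PSs was below it. The lowest group mean of the 8 was 10.5 in Ofanto control, which is dim. The part of leaf composition in the results was not tested.

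The other ribosomal protein families include mitochondrial types and proteins of ribosome assembly. The L2 family PS matching At2g44065 was called up in Ofanto CS and in Cappelli HS and CS. In Ofanto it gave 10040, 10630 and 9717 under DS, 9612, 10660 and 8204 under HS and 57880, 47150 and 49580 under CS, against 8149, 9747 and 9228 in control. Cappelli arrays read 13190, 12550 and 10970 under DS, 23720, 24520 and 36730 under HS and 37870, 27310 and 16120 under CS, against 13680, 10030 and 10760 in control. The Ofanto CS arrays were far above all others, at 2.51 against control, while HS alone read 0.07 there. Cappelli had changes of 1.28 under HS and 1.17 under CS.

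The L20 family PS At1g16740 was called in both directions in Ofanto. Its arrays read 489, 464 and 462 under DS, 813, 852 and 764 under HS and 147, 193 and 148 under CS, against 474, 372 and 366 in control. Those of Cappelli read 715, 602 and 674 under DS, 891, 624 and 464 under HS and 518, 834 and 999 under CS, against 405, 419.5 and 522 in control. It was called up in Ofanto HS (1.01) and down in Ofanto CS (-1.31), where its signals were the lowest of all groups, and was not called in Cappelli.

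The S8e family PS At5g06360 matches a protein related to a ribosome assembly factor of yeast. Ofanto arrays gave 1580, 1688 and 1794 under DS, 3890, 3495 and 3429 under HS and 3832, 4035 and 3116 under CS, against 1344, 1388 and 1335 in control. Cappelli arrays gave 2421, 2268 and 2111 under DS, 1811, 1889 and 1904 under HS and 2135, 2585 and 3282 under CS, against 1792, 1479 and 1611 in control. It was called up in Ofanto HS and CS, at 1.41 and 1.43, and read 0.20 and 0.70 in Cappelli HS and CS. The L33 family PS At5g18790 gave 399, 453 and 428 under DS, 595, 618 and 551 under HS and 219, 239 and 282 under CS, against 429, 343 and 471 in Ofanto control. Its Cappelli signals were 650.2, 678 and 655 under DS, 484, 632 and 856 under HS and 576, 687 and 685 under CS, against 582, 595 and 676 in control, and Ofanto CS held its 3 lowest arrays. The mitochondrial-type L11 PS At4g35490 was called up in Ofanto HS (1.30) and read -0.67 in Cappelli HS. The L3 (At3g17465), L6 (At2g18400) and L27 (At2g16930) family PSs were called in no comparison with control, with changes of 0.68, 0.81 and 0.66 in Ofanto HS and -0.14, -0.43 and 1.00 in Cappelli HS.

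Among initiation factors, eIF5A, a small factor that carries the modified amino acid hypusine and eases peptide bond formation, was covered by 3 PSs with the same match. The a_at PS of At1g13950 gave 1674, 1699 and 2220 under DS, 4332, 4297 and 4594 under HS and 3378, 3034 and 3576 under CS, against 2017, 1296 and 1669 in Ofanto control. The Cappelli signals were 4181, 3381 and 3174 under DS, 4981, 4552 and 5071 under HS and 5598, 5558 and 5564 under CS, against 1602, 2415 and 2231 in control. All HS and CS arrays were above control in both cultivars, and so were the DS arrays in Cappelli. The 3 PSs read 1.04 to 1.43 in Ofanto HS, 0.53 to 1.02 in Ofanto CS, and in Cappelli 0.69 to 0.79 under DS, 1.24 to 1.31 under HS and 1.23 to 1.44 under CS, and were called up in 3, 1, 0, 3 and 3 of 3.

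SUI1 (At1g54290), the plant form of eIF1, which guards the choice of the start codon, gave 12550, 12010 and 12920 under DS, 10700, 11220 and 10980 under HS and 24170, 22760 and 22800 under CS, against 10900, 11420 and 10560 in Ofanto control. Signals in Cappelli were 9136, 9478 and 8551 under DS, 29120, 26390 and 32660 under HS and 31180, 26000 and 19440 under CS, against 11200, 10760 and 10260 in control. In Ofanto only the CS arrays stood above the rest (1.08), with HS at 0.00, and in Cappelli both HS (1.45) and CS (1.22) did. The mitochondrial IF-2 PS At4g11160 read 269, 373 and 415 under DS, 627, 459 and 460.5 under HS and 731, 679 and 524 under CS, against 381, 435 and 362 in Ofanto control. Cappelli read 555, 477 and 315 under DS, 907, 947 and 883 under HS and 880.0, 684 and 743 under CS, against 350.5, 315 and 319.9 in control, and its HS and CS arrays were called up, at 1.48 and 1.22. The eIF2 gamma subunit (At1g04170), part of the complex that delivers the initiator tRNA, was called up in Ofanto CS (1.28) and Cappelli HS (1.17). The cap-binding protein eIF4E (At4g18040) was called nowhere, with changes from -0.21 in Ofanto DS to 0.53 in Ofanto CS.

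The 2 PSs matching At2g05830 had values that parted in Ofanto HS and Ofanto CS. That gene is annotated as an eIF2B family protein, and in Arabidopsis it is known as an enzyme of methionine salvage. The PS with the wider range gave 3174, 3213 and 3163 under DS, 2041, 2001 and 1909 under HS and 1222, 1455 and 1154 under CS, against 2567, 4161 and 3972 in Ofanto control. Its Cappelli signals were 2411, 2823 and 2268 under DS, 879, 732 and 986 under HS and 687, 876 and 1084 under CS, against 2252, 2806 and 2839 in control. The HS and CS arrays were below control in both cultivars, and it was called down in Ofanto CS (-1.46), Cappelli HS (-1.61) and Cappelli CS (-1.59). In Ofanto control, replicate 1 read 2567 beside 4161 and 3972 in replicates 2 and 3, the arrays whose descriptions carry the drought text. The partner PS agreed in Cappelli CS (-1.22, called down) and differed in Ofanto HS (0.43 beside -0.81). It also differed in Ofanto CS, at -0.14 beside -1.46, so the fall called there was not shared by the partner. Over all 9 initiation factor PSs the class median was 0.38 under HS and 0.70 under CS in Ofanto and 1.24 under HS and 1.22 under CS in Cappelli, and of these 4 only that of Ofanto CS changed sign on the spike-in scale, to -0.31.

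Elongation was represented by the nucleotide exchange subunit EF-1-beta, which recharges eEF1A with GTP, and by EF-P proteins. EF-1-beta (At1g30230, x_at) gave 3126, 3310 and 3481 under DS, 6987, 6441 and 7066 under HS and 8509, 8408 and 7738 under CS, against 1555, 1798 and 1820 in Ofanto control. In Cappelli it gave 4720, 5118 and 4395 under DS, 4846, 4432 and 3322 under HS and 4505, 4536 and 6411 under CS, against 3283, 3505 and 3754 in control. In Ofanto the groups lay in the order CS, HS, DS and control without overlap, while in Cappelli all changes stayed within 2-fold. Both EF-1-beta PSs were called up in Ofanto HS (1.99 and 1.37) and CS (2.25 and 1.69), and the Cappelli values were 0.24 and 0.26 in HS and 0.53 and 0.46 in CS.

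EF-P helps bacterial ribosomes past stalling sequences, and At3g08740 is its plastid-type relative. The at PS of At3g08740 gave 1275, 1389 and 1344 under DS, 4027, 4131 and 3827 under HS and 2125, 2244 and 2036 under CS, against 1501, 1558 and 1376 in Ofanto control. Cappelli arrays read 1813, 2315 and 2135 under DS, 2151, 2156 and 1722 under HS and 2303, 3092 and 4126 under CS, against 1010, 797 and 726 in control. Every stress group of Cappelli lay above control, and in Ofanto HS and CS did. Its partner At3g08740 s_at read 1050, 1133 and 952 under DS, 2441, 2584 and 2833 under HS and 1756, 2018 and 1811 under CS, against 1440, 1083 and 1247 in Ofanto control. Its Cappelli arrays read 1265, 1728 and 1500 under DS, 2189, 2165 and 2841 under HS and 2365, 2476 and 2951 under CS, against 859.8, 583 and 648 in control. The pair was called up in Ofanto HS (1.44 and 1.07), Cappelli DS (1.31 and 1.11), Cappelli HS (1.26 and 1.79) and Cappelli CS (1.88 and 1.91), and these 2 PSs with CL24 (At5g54600, at) were all that was called in Cappelli DS.

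Among release factors, the eRF1 family PS had the highest change of the 59 PSs in Ofanto CS, by its bound, and in Cappelli HS and CS. The PS At1g12920 matches the factor that reads stop codons, and it gave 211, 213 and 139 under DS, 131, 163 and 111 under HS and 1588, 1403 and 1874 under CS, against 9.12, 29.4 and 9.87 in Ofanto control. The Cappelli signals were 177, 216 and 134 under DS, 2569, 3225 and 6002 under HS and 6563, 3546 and 1151 under CS, against 242, 245 and 290.0 in control. The Ofanto control arrays were dim, every stressed Ofanto array was above them, and the CS arrays were the highest. In Cappelli the HS and CS arrays stood above control and the DS arrays below it. With the dim Ofanto control arrays set at their percentile, Ofanto CS was at least 11.5-fold and Ofanto DS at least 1.31-fold higher, and HS, with 2 of 3 arrays above the percentile, gives no bound. The Cappelli changes were 3.83 under HS and 3.54 under CS, the CS arrays running from 1151 to 6563. It is the only PS of the 59 that was called in Ofanto DS, where the bound is under 2-fold and where 0 PSs were called by the methods' t-test or with only the compared groups in the fit.

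The second release factor PS, At1g56350, is annotated as a putative peptide chain release factor. Ofanto arrays gave 185, 225 and 233 under DS, 569, 489 and 705 under HS and 846, 455 and 464 under CS, against 112, 191 and 180.4 in control. Cappelli arrays gave 268, 296 and 245 under DS, 589.6, 853 and 675 under HS and 493, 446 and 601 under CS, against 259, 214 and 295 in control. Its HS and CS arrays lay above control in both cultivars, with log2 changes of 1.89 and 1.84 in Ofanto and 1.46 and 1.00 in Cappelli.

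**Figure D5:**
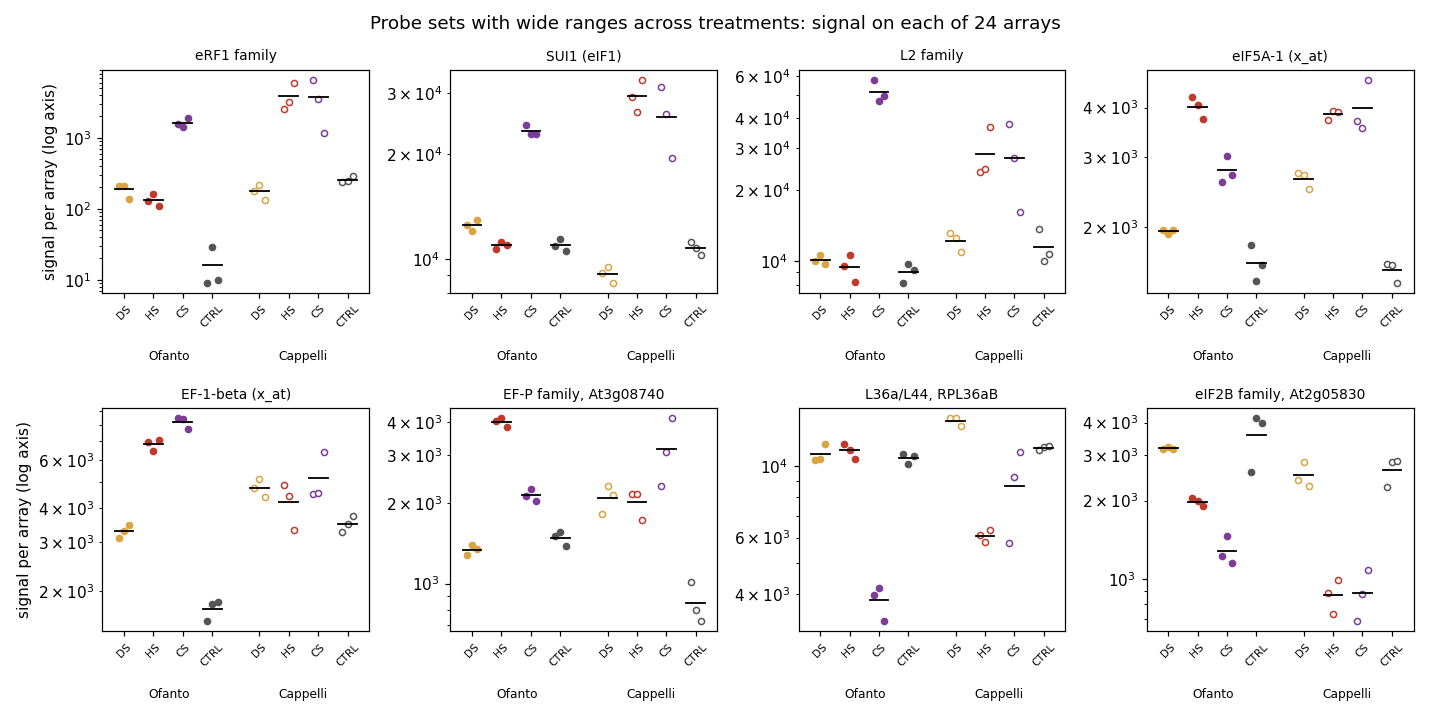
Signal on each array (log axis) of 8 PSs with wide ranges over treatments, with DS, HS, CS and control from left to right in Ofanto (filled points) and then Cappelli (open points), and bars as means of 3 arrays. Group means of eRF1 run from 16.1 in Ofanto control to 3932 in Cappelli HS, L2 is highest in Ofanto CS and SUI1 in Cappelli HS, and RPL36aB is lowest in Ofanto CS.

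Of the 5 PSs for tRNA enzymes and tRNA-binding proteins, 3 were called up in Ofanto HS (10.4% of all PSs were) and 2 in Cappelli HS (11.2%). Peptidyl-tRNA hydrolase (At5g38290), which frees tRNA from stalled chains, gave 2603, 2551 and 2722 under DS, 5537, 5116 and 4909 under HS and 5106, 4518 and 4576 under CS, against 2423, 2100 and 2142 in Ofanto control. Signals in Cappelli were 1795, 1613 and 1668 under DS, 4575, 3934 and 2911 under HS and 2903, 3345 and 3847 under CS, against 1213, 1495 and 1058 in control. HS and CS arrays were above control without overlap in both cultivars, and all 4 comparisons were called up, from 1.09 to 1.59. Glutamyl-tRNA synthetase (At5g64050) read 1238, 1248 and 1541 under DS, 2397, 2440 and 2091 under HS and 2050, 1646 and 2000 under CS, against 1218, 1206 and 1224 in Ofanto control. Cappelli read 2279, 2209 and 2158 under DS, 3233, 3180 and 2017 under HS and 2474, 2968 and 3317 under CS, against 1134, 1241 and 1360 in control, and was called up under HS (1.15) and CS (1.22).

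A pair of synthetases was called up in Ofanto HS. At2g25840, the tryptophanyl-type match, gave 867, 696 and 877 under DS, 1454, 1674 and 1459 under HS and 1025, 1145 and 937 under CS, against 676, 728 and 516 in Ofanto control. In Cappelli it gave 417, 602 and 657 under DS, 732, 558 and 383 under HS and 874, 646 and 739 under CS, against 639, 729 and 471 in control. Seryl-tRNA synthetase (At1g11870) read 345, 531 and 451 under DS, 647, 598 and 957 under HS and 676, 686 and 624 under CS, against 230.0, 309 and 292 in Ofanto control. Its Cappelli signals were 349, 358 and 381 under DS, 515, 533 and 294 under HS and 443, 408 and 508 under CS, against 426, 353 and 317 in control. Both were called up in Ofanto HS (1.27 and 1.39), the seryl enzyme in Ofanto CS as well (1.27), and neither was called in Cappelli, where the HS changes were -0.16 and 0.25. The tRNA-binding domain PS At2g40660 was called nowhere.

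CS was also set against each single stress. In Ofanto CS against HS, 3 PSs were called up (6.73% of all PSs) and 16 down (13.1%), and 9 of the 16 were the chloroplast ribosome, whose 11 PSs all lay below HS on every array (37.3% of all PSs did) with a median of -1.17. The split was 1 up and 50 down on the spike-in scale and 5 up and 9 down with arrays centred on their median. In Ofanto CS against DS, 9 were called up (11.7%) and 5 down (18.3%), beside 2 and 14 on the spike-in scale and 15 and 5 after centring. In Cappelli CS against HS 1 was called up (0.52%) and 0 down (0.399%). The count was 8 without Cappelli CS replicate 1 and 0 without Cappelli CS replicate 2, CS replicate 3 or HS replicate 2. In Cappelli CS against DS 3 were called up (7.83%) and 1 down (9.4%), beside 1 and 8 on the spike-in scale. Cappelli CS arrays were the most spread of all groups, so fewer calls there do not show that the levels were alike. Differences between the cultivars in these responses were not tested.

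Proteins that work beside the ribosome were taken as a list. These 7 PSs from the same tables (nascent polypeptide-associated complex, SRP19 of the signal recognition particle, nucleolin, the helicase PRH75 and a translationally controlled tumor family protein) had 3 called up and 0 down in Ofanto HS, 2 and 0 in Ofanto CS, 1 and 0 in Cappelli DS, 0 and 1 in Cappelli HS and 1 and 0 in Cappelli CS. Their median log2 change was 0.75, 0.99, 0.35, 0.50 and 0.43 in the same order. Among all PSs 10.4% were called up and 7.46% down in Ofanto HS, and 14.4% and 19.7% in Ofanto CS. In Cappelli the shares were 0.891% and 0.445% under DS, 11.2% and 13.6% under HS and 9.89% and 11.8% under CS. These shares also stand beside the lists that follow, and the lists are small. Of other leaf lists, 7 of 16 PSs for histones, a cyclin and a CDK-activating kinase were called up and 6 down in Ofanto CS, 6 up and 4 down in Cappelli HS, and 11 senescence-annotated PSs had 3 up and 6 down in both Ofanto HS and Cappelli HS. The part of these lists in the results was not tested.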

How the data were processed

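Expression was measured in 24 leaf samples of durum wheat on the Affymetrix Wheat Genome Array. The deposited values are MAS5 signal intensity values on a linear scale, which the authors made from the scanned arrays and which were scaled to a trimmed mean of 500.3 on every array; no MAS5 version is stated, and the study's own tests used another summary of the same arrays. Values were taken as log2 with no offset. Control PSs (111) were left out, and 28072 of 61179 PSs were kept, those that on all 3 arrays of at least 1 group exceeded the 60th percentile of the array. One limma model (limma 3.58.1, R 4.3.3) with 8 group means was fitted over the kept PSs, with 16 residual degrees of freedom and Benjamini-Hochberg adjustment, and calls needed an adjusted p under 0.01 and at least 2-fold. A signal is dim under the percentile of its array, and a group is dim where all 3 of its arrays are. The script was tested on simulated data.

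The members, marker lists and tests were chosen with earlier results of these data known. The annotations come from the study's tables, which were at hand in part, and no sequences are printed. Named PSs were those with the widest range of group means in each class (up to 4), those called for the cultivar difference, and the largest rise and fall in each comparison with control; further PSs were named after their values were seen. The values of 1 further PS are not reported here by name, though it stays in the counts, the class medians and the unlabelled plot by class. Where both groups were dim, no fold is given. Alternatives covered scaling, filter, offset, test, array weights, samples in the fit, minimum fold, replicate block and arrays left out. No pairing by replicate number was detected, as 0 of 84 same-number pairs correlated above 0.1. This does not exclude blocks shared between groups.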

Additional observations from a re-analysis of the deposited data

Results flagged for a closer look

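In 13 cases every array of Ofanto moved one way against its control and every array of Cappelli the other way. The difference between the cultivars was not tested in any of them, and the comparisons chose the PSs. Of the 13, 7 were under DS, 3 under HS and 3 under CS, and among all 28072 PSs 8%, 7.01% and 5.7% did so. Under DS the log2 changes were -0.32 in Ofanto and 0.26 in Cappelli for EF-P (At4g26310), -0.41 and 0.86 for chloroplast L9 (At3g44890), -0.33 and 1.13 for CL24 (At5g54600, at), and -0.34 and 1.00 for L18 (At1g48350, at). They were -0.41 in Ofanto and 0.33 in Cappelli for RPL22B (At3g05560), 0.19 and -0.25 for SUI1 (At1g54290), and at least 0.39 and -0.58 for eRF1 (At1g12920), whose Ofanto control arrays were dim. Under HS they were 1.30 in Ofanto and -0.67 in Cappelli for the L11 family PS At4g35490, 0.43 and -0.85 for the narrower-range PS of the eIF2B family match At2g05830, and 0.75 and -0.87 for RPL24A (At2g36620). Under CS they were -0.38 in Ofanto and 1.18 in Cappelli for L9, -0.33 and 1.32 for CL24, and -0.70 and 0.63 for chloroplast L4 (At1g07320).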

How the results depend on the processing

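Of the 8 called cultivar differences, that of the EF-P PS kept its direction and its call under every alternative run. The 7 given as descriptions did so too. Their filter made them differ, so this adds no support for them. Centring arrays on their median, quantile normalization, an offset of 32 and the replicate block left all 11 counts of called PSs within 1.5 times, the block giving 8 for the cultivar difference and 23 for Ofanto HS. The spike-in scale gave 41 in Ofanto HS, 51 in Ofanto CS against HS, 0 in Cappelli DS, 13 in Cappelli HS, 9 in Cappelli CS against DS, 0 in Cappelli CS against HS and 19 for the cultivar difference. The methods' t-test gave 0 in Ofanto DS, 8 in Ofanto HS and 7 in Ofanto CS, CS against DS and CS against HS, and in Cappelli 0 in DS, 6 in HS, 0 in CS, 0 in CS against DS and 0 in CS against HS. With no minimum fold the counts were 4, 36 and 29 in Ofanto DS, HS and CS, 28 and 33 in Ofanto CS against DS and HS, 10 and 35 in Cappelli DS and CS, 20 and 2 in Cappelli CS against DS and HS, and 28 for the cultivar difference. Cappelli DS gave 5 with array weights and 0 with only the compared groups, where Ofanto DS gave 0. Cappelli CS against HS gave 0 with array weights, with only the compared groups or with no filter, and 2 at the 75th percentile. Without Ofanto control replicates 2 and 3, Ofanto DS gave 3.

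Leaving out 1 array at a time gave 1 to 2 in Ofanto DS (2 without Ofanto control replicate 2 or DS replicate 1), 21 to 24 in HS, 17 to 19 in CS, 12 to 15 in CS against DS and 18 to 22 in CS against HS. In Cappelli it gave 2 to 5 in DS (5 without Cappelli DS replicate 1), 20 to 25 in HS, 17 to 28 in CS, 3 to 5 in CS against DS and 0 to 8 in CS against HS (8 without Cappelli CS replicate 1, 0 without Cappelli CS replicate 2 or 3 or HS replicate 2), and 8 each time for the cultivar difference. Class medians turned sign on the spike-in scale for other families at -0.97 in Ofanto CS and at -0.11, -0.30 and -0.60 in Cappelli DS, HS and CS and -0.88 in the cultivar difference, for tRNA enzymes at -0.31 in Ofanto CS, -0.21 in Cappelli DS and -0.72 in Cappelli CS, for elongation factors at -0.44 in Ofanto CS, -0.33 in Cappelli CS and -0.89 in the cultivar difference, for initiation factors at -0.31 in Ofanto CS and -0.25 in Cappelli DS, and for the chloroplast ribosome at -0.25 in Cappelli HS, -0.13 in Cappelli CS and -0.42 in the cultivar difference. Median centring gave 0.10 for the chloroplast ribosome in Ofanto CS and quantile normalization 0.032 for the cytosolic ribosome in Ofanto DS. The causes were not tested. With 3 arrays a group and dim signals below the percentile, small changes of dim PSs are not resolved. The platform's own translation list was not run, since 0 of its 1273 PSs matched the words.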

Other observations

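PSs were also taken by the number in their names, from the lowest to the highest number of the 7 cytosolic PSs bright in Cappelli. In this range 77 PSs were kept beside the 7 themselves. Of the 77, 9 (11.7%) had at most 1 Ofanto and at least 10 Cappelli arrays above the percentile. Among the 27988 kept PSs outside the range, 281 (1%) did. This range was chosen after the values of the 7 were seen, and no explanation was tested.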
